A study of Saccharomyces cerevisiae with 15 samples.

Results

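CHA1 encodes the yeast enzyme that breaks down serine and threonine, and it was examined here together with 7 genes of serine and threonine metabolism. By gene identifier these were CHA1 (YCL064C), CHA4 (YLR098C), SER1 (YOR184W), SER2 (YGR208W), SER3 (YER081W), SER33 (YIL074C), ILV1 (YER086W) and GLY1 (YEL046C). The 8 genes are 8 of the 6600 gene identifiers in the deposited table, and all 8 were among the 5567 genes tested. CHA1 was chosen by its normalized read counts, which were among the lowest of all genes relative to control in cells exposed to lanthanum, so its own values in the comparisons with La or with control are a description and carry no test. The other 7 genes were taken for their place in the pathway, with earlier results of these data known.

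Serine is made from the glycolytic intermediate 3-phosphoglycerate by the dehydrogenase isoenzymes Ser3 and Ser33, the aminotransferase Ser1 and the phosphatase Ser2. The dehydratase Cha1 turns serine into pyruvate and threonine into 2-oxobutyrate in mitochondria, and in yeast its gene is switched on by serine or threonine through the activator Cha4. Ilv1 carries out the same reaction on threonine for the synthesis of isoleucine, and the aldolase Gly1 splits threonine into glycine and acetaldehyde. SER3 is known to be held down by transcription of the noncoding RNA SRG1 across its promoter, which Cha4 also switches on when serine is present.

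The libraries came from Saccharomyces cerevisiae BY4741, a haploid laboratory strain labelled wild type, grown in liquid YNB-β-glycerophosphate medium. Each of the 5 groups had 3 libraries: untreated control cells, cells given 50 µM or 160 µM lanthanum (La), a rare earth element of the light kind, and cells given 6 µM or 8 µM ytterbium (Yb), one of the heavy kind, with an exposure of 1 h. The labels give 50 µM La and 6 µM Yb as the EC10 and 160 µM La and 8 µM Yb as the EC50, the doses with 10% and 50% effect. The series description calls the profiles retinal, whereas every sample is labelled as yeast, and the labels were followed. No label states that libraries of the same group were separate cultures, so p-values measure the spread between these libraries, which may be technical.

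Values are normalized read counts, which are gene counts divided by a size factor for each library. Depth was 5629666 to 7183175 reads per library. BY4741 lacks URA3 and MET17, and each had 0 reads in every library, which allows up to 3 reads or 2.70 to 3.67 normalized counts per library. LEU2, lacking too, reached at most 0.953 normalized counts, 1 read in 1 library. HIS3, of which the strain carries a partial deletion, was at 349.9 to 507 normalized counts. STE2, the receptor gene of mating type a, was at 3239 to 6130 normalized counts. Of the opposite type, the receptor gene STE3 was at 47.4 to 79.6 and the pheromone genes MF(ALPHA)1 and MF(ALPHA)2 at 0.960 to 11.7 and 0 to 5.32. Libraries are named by their group and their running number in the table. A change was called at an adjusted p under 0.05 in limma, adjusted over all 5567 genes, and log2 changes are on the log2(normalized count + 1) scale.

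The region before CHA1 is shown because CHA1 is the gene the selection rests on, and that before SER3 because SER3 rose. Both are 170 bases of build R64, from 250 to 81 bases before the start codon and 5′ to 3′ on the strand of the gene. Capitals mark the letters TATAAA, the sequence of a promoter box. Each of these genes has 2 matches from 250 bases before to 50 after the start. The other match lies outside the stretch shown, 63 bases before the start on the opposite strand for CHA1 and 29 before for SER3. CHA1 lies on chromosome III at 15798-16880 on the minus strand and SER3 on chromosome V at 322686-324095 on the plus strand, each with 1 coding exon.
CHA1 chrIII:16961-17130 minus strand: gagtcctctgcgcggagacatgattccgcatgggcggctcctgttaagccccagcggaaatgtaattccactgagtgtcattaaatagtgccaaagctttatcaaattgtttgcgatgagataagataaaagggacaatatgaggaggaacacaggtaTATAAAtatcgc
SER3 chrV:322436-322605 plus strand: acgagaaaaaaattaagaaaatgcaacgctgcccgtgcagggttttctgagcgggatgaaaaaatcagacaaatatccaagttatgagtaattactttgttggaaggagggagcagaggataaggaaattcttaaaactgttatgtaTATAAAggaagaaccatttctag
TATAAA, searched on both strands from 250 bases before to 50 after the start, was also found for CHA4 and SER1, and 45.2% of 6001 promoters of that length held it. The noncoding gene SRG1 lies at 322212-322762 on the plus strand of chromosome V, runs through the SER3 stretch shown and shares 77 bases with the SER3 coding sequence. SRG1, under its identifier YNCE0017W, is not among the 6600 gene identifiers with counts, so it was not analysed here.

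The letters TGACTC, the core of the site of the amino acid starvation activator Gcn4, were found on either strand before SER33, SER1, SER2 and ILV1. They were not in the same window of CHA1, CHA4, SER3 or GLY1, and 7.98% of the 6001 promoters held them. Stretches of 40 bases around these letters are shown because they set the 4 genes apart by sequence, with the match in capitals (GAGTCA where it lies on the opposite strand).
SER1 chrXV:679156-679195 plus strand: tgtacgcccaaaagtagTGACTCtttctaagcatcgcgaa
SER2 chrVII:911711-911750 plus strand: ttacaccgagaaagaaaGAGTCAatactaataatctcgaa
SER33 chrIX:222622-222661 minus strand: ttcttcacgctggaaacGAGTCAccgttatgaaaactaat
ILV1 chrV:328327-328366 plus strand: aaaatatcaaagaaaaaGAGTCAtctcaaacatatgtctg
A match of letters describes the sequence and does not show that a factor binds there.

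CHA1 had 415, 446 and 414 normalized counts in control libraries 1, 2 and 3. With La it had 106, 106 and 101 at EC10 (libraries 13, 14 and 15) and 112, 112 and 96.4 at EC50 (libraries 10, 11 and 12). Every La library lay below every control library, and the La doses overlapped each other. With Yb it had 239, 230 and 216 at EC10 (libraries 7, 8 and 9) and 154, 280 and 212 at EC50 (libraries 4, 5 and 6). The Yb libraries lay between the La and the control libraries without overlap with either. In bulk RNA, less transcript in every cell and fewer cells that express the gene cannot be told apart.

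The mean of CHA1 was 425 ± 18.2 in control (SD, n = 3), 105 ± 3.16 at La EC10, 107 ± 8.98 at La EC50, 228 ± 11.5 at Yb EC10 and 215 ± 63.4 at Yb EC50. This was 24.6% and 25.1% of control at the La doses and 53.8% and 50.7% at the Yb doses. The log2 differences from control were -2.01 ± 0.15 (SE), -1.99 ± 0.15, -0.89 ± 0.15 and -1.02 ± 0.15. As CHA1 was chosen by such values, these SEs do not serve as a test. Ordered from the lowest difference from control among 5567 genes, CHA1 stood at place 2 for La EC10, 1 for La EC50, 5 for Yb EC10 and 26 for Yb EC50. Yb EC50 had the widest spread, with library 4 low and library 5 high: the log2 difference from control there was -0.80 without library 4 and -1.23 without library 5. The means of the Yb dose step use none of the libraries that chose CHA1. Its SE rests on the spread within all 15 libraries, those included, so the test is not fully independent of the choice. The log2 change was -0.13 ± 0.15 (95% interval -0.44 to 0.19) and did not pass the test (limma adjusted p = 0.704). As Yb EC50 had the widest spread, the shared SE may be too small for this step.

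**Figure D1:**
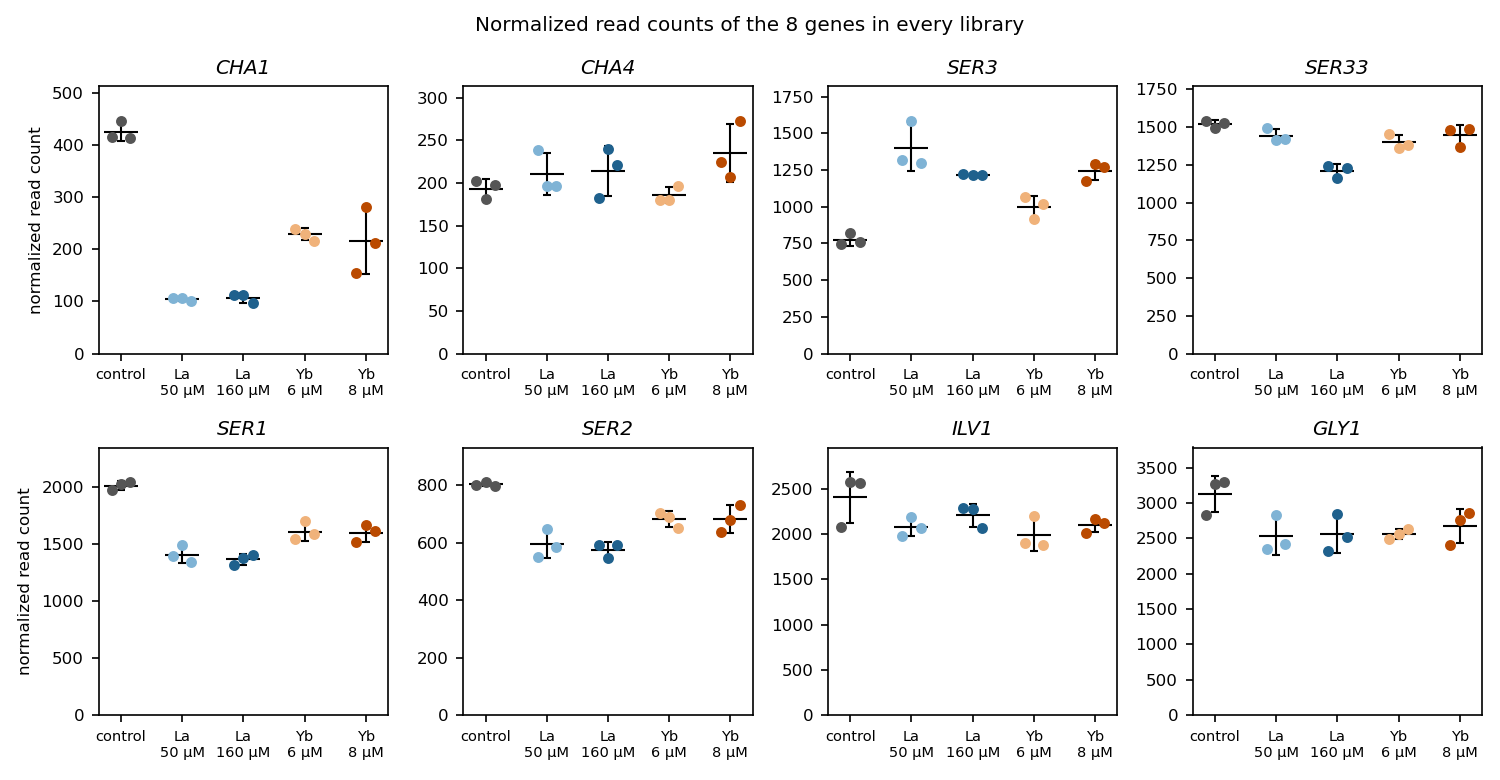
Normalized read count of each of the 8 genes (vertical axes, linear, from 0) in every library of the 5 groups (horizontal axes, with the dose). Points are libraries and bars the mean ± SD of 3; CHA1 lies at 96.4 to 112 in the La libraries and at 414 to 446 in control, while SER3 is above its control range in all 12 exposed libraries.

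SER3, an isoenzyme of the opening step of serine synthesis, rose in all 4 exposed groups. It had 744, 821 and 763 normalized counts in control libraries 1, 2 and 3, with 1317, 1585 and 1301 at La EC10 (libraries 13, 14 and 15) and 1221, 1217 and 1219 at La EC50 (libraries 10, 11 and 12). With Yb it had 1065, 915 and 1018 at EC10 (libraries 7, 8 and 9) and 1173, 1292 and 1270 at EC50 (libraries 4, 5 and 6). No exposed library overlapped the control libraries, and Yb EC10 lay below the other exposed groups.

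The group means of SER3 were 1.81 times control at La EC10, 1.57 times at La EC50, 1.29 times at Yb EC10 and 1.60 times at Yb EC50. The log2 changes were 0.85 ± 0.08 (SE, limma adjusted p = 1.69e-06), 0.65 ± 0.08 (1.99e-05), 0.36 ± 0.08 (0.00328) and 0.68 ± 0.08 (7.51e-06). The 4 calls held under each of the 25 alternative settings tried, which include leaving out each library. The 4 comparisons share the control libraries and are not independent of each other. At its EC10, La raised SER3 above Yb by 0.48 ± 0.08 on the log2 scale (limma adjusted p = 0.00113), and at the EC50 the metals differed by -0.03 (95% interval -0.20 to 0.14, adjusted p = 0.831).

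SER33, the other isoenzyme of that step, lies on chromosome IX at 221081-222490 and moved differently. It had 1541, 1491 and 1526 normalized counts in control libraries 1, 2 and 3, with 1492, 1418 and 1422 at La EC10 (libraries 13, 14 and 15) and 1241, 1165 and 1230 at La EC50 (libraries 10, 11 and 12). With Yb it had 1452, 1362 and 1383 at EC10 (libraries 7, 8 and 9) and 1480, 1368 and 1487 at EC50 (libraries 4, 5 and 6). The La EC50 libraries were the lowest, below every other library. All Yb libraries also lay below the control libraries, while La EC10 overlapped control. SER33 fell by 0.33 on the log2 scale at La EC50 (SE 0.06, limma adjusted p = 0.000485). The log2 differences in the other groups were -0.07 at La EC10, -0.12 at Yb EC10 and -0.07 at Yb EC50 and did not pass the test (adjusted p = 0.371, 0.114 and 0.303).

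SER3 and SER33 share 83.1% of 1406 aligned coding bases, with a longest identical run of 56 bases. Of the 1361 stretches of 50 bases in SER3, 11 also occur in SER33 without a mismatch. How many reads could belong to either gene was not tested. SER3 made up 33.8% ± 1.53 of the counts of the pair in control (SD, n = 3), 49.2% ± 3.18 at La EC10, 50.1% ± 0.827 at La EC50, 41.6% ± 1.24 at Yb EC10 and 46.3% ± 2.18 at Yb EC50. The highest control library was at 35.5% and the lowest exposed library at 40.2%. The sum of the pair was 2295 normalized counts in control, 2845 at La EC10, 2431 at La EC50, 2398 at Yb EC10 and 2690 at Yb EC50.

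**Figure D2:**
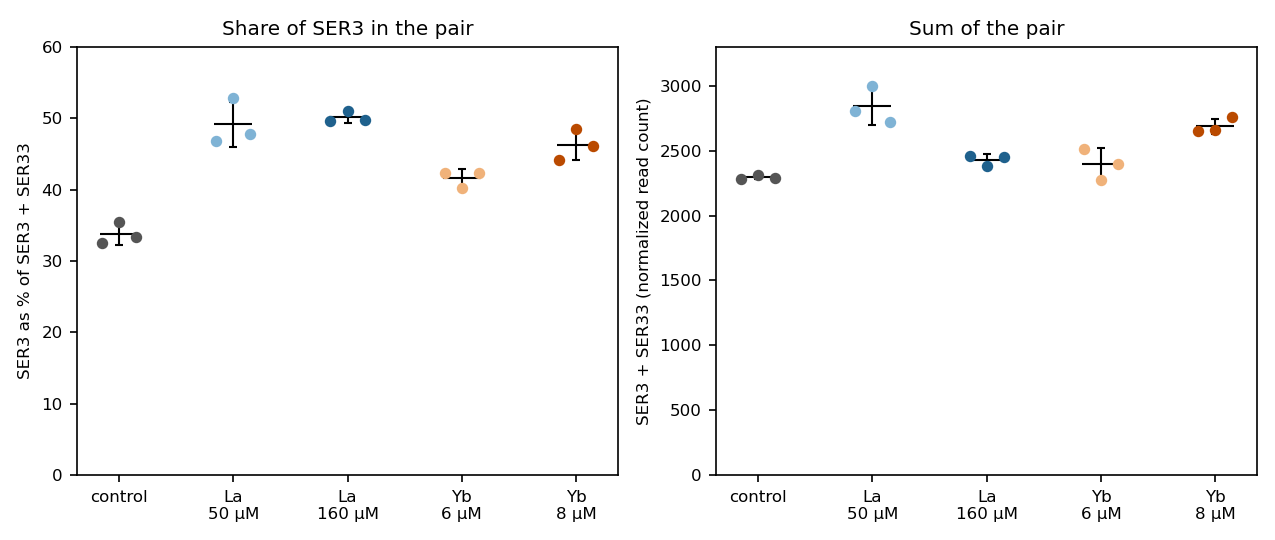
Share of SER3 in the summed counts of SER3 and SER33, in percent (left), and that sum in normalized read counts (right), by group and dose. Points are libraries and bars the mean ± SD of 3; the share is 32.5% to 35.5% in control libraries and 40.2% to 52.8% in exposed ones.

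SER1 and SER2, the later steps of serine synthesis, fell in all 4 exposed groups, and their means were lower with La than with Yb at both effect levels. SER1 lies on chromosome XV at 679357-680544 and had 1969, 2027 and 2039 normalized counts in control libraries 1, 2 and 3. It had 1392, 1489 and 1339 at La EC10 (libraries 13, 14 and 15), 1311, 1381 and 1406 at La EC50 (libraries 10, 11 and 12), 1539, 1699 and 1587 at Yb EC10 (libraries 7, 8 and 9) and 1514, 1666 and 1611 at Yb EC50 (libraries 4, 5 and 6). All exposed libraries lay below control, and all La libraries lay below all Yb libraries. The means were 69.9%, 67.9%, 79.9% and 79.4% of control. The log2 changes of SER1 were -0.52 ± 0.06, -0.56 ± 0.06, -0.32 ± 0.06 and -0.33 ± 0.06 (limma adjusted p = 2.05e-05, 6.5e-06, 0.00124 and 0.000574), and the 4 calls held under each of the 25 alternatives.

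SER2 lies on chromosome VII at 911883-912812 and had 801, 810 and 799 normalized counts in control libraries 1, 2 and 3. It had 551, 647 and 586 at La EC10 (libraries 13, 14 and 15), 590, 547 and 591 at La EC50 (libraries 10, 11 and 12), 705, 691 and 650 at Yb EC10 (libraries 7, 8 and 9) and 637, 680 and 732 at Yb EC50 (libraries 4, 5 and 6). All exposed libraries lay below control. The log2 changes were -0.44 ± 0.07, -0.48 ± 0.07, -0.24 ± 0.07 and -0.24 ± 0.07 (limma adjusted p = 0.000443, 0.000131, 0.0202 and 0.0145). The La calls held under each of the 25 alternatives. The Yb EC10 call was lost when every library was scaled to an equal total (adjusted p = 0.101), without control library 2 (0.0615) and without Yb EC10 library 9 (0.0907), over a range of 0.0107 to 0.101. The Yb EC50 call was lost with equal totals (0.286) and without Yb EC50 library 4 (0.0808), over a range of 0.00792 to 0.286.

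GLY1, the threonine aldolase gene on chromosome V at 67629-68792, had 2827 to 3290 normalized counts in control. The libraries of La EC10 spanned 2345 to 2832, those of La EC50 2318 to 2845, those of Yb EC10 2494 to 2624 and those of Yb EC50 2410 to 2860. The Yb EC10 range alone did not overlap control, whose library 1 was the lowest. GLY1 fell by 0.31 ± 0.09 on the log2 scale at La EC10, by 0.29 ± 0.09 at La EC50 and by 0.29 ± 0.09 at Yb EC10 (limma adjusted p = 0.0312, 0.0320 and 0.0320), and the -0.23 ± 0.09 of Yb EC50 did not pass the test (0.0648). Each of these calls was lost under several alternatives. With equal totals the adjusted p was 0.0627, 0.1 and 0.0682 in that order. With quantile normalization, edgeR and DESeq2 the La EC10 call was lost (0.058, 0.13 and 0.148), as was the La EC50 call (0.0721, 0.143 and 0.18). edgeR and DESeq2 used 13 libraries, and limma on the same 13 also lost both calls (0.126 and 0.147). The La EC10 call was lost without control library 2 (0.109) or 3 (0.108) or La EC10 library 13 (0.13) or 15 (0.117), and the La EC50 call without control library 2 (0.112) or 3 (0.115) or La EC50 library 10 (0.143) or 12 (0.0881). The Yb EC10 call was lost without control library 2 (0.111) or 3 (0.111) or Yb EC10 library 7 (0.087), 8 (0.0515) or 9 (0.0651). Over the 25 alternatives the adjusted p ranged from 0.0082 to 0.148, from 0.0171 to 0.18 and from 0.0162 to 0.111. At Yb EC50 edgeR made the call (0.0418), and limma made it when control library 1 (0.0301) or La EC10 library 14 (0.0422) was left out.

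ILV1, the biosynthetic threonine deaminase gene on chromosome V at 328477-330207, had 2077, 2570 and 2568 normalized counts in control libraries 1, 2 and 3, and 1879 to 2287 in the exposed libraries. Control library 1 lay inside the range of the exposed libraries, and control libraries 2 and 3 lay above it. The log2 changes were -0.21 ± 0.09 at La EC10, -0.12 ± 0.09 at La EC50, -0.27 ± 0.09 at Yb EC10 and -0.19 ± 0.09 at Yb EC50, and of these only Yb EC10 passed the test (limma adjusted p = 0.102, 0.337, 0.0298 and 0.0899). Without control library 1 the La EC10 (0.0157) and Yb EC50 (0.0109) differences also passed. The Yb EC10 call was lost without control library 2 (0.126) or 3 (0.119) or Yb EC10 library 7 (0.0986) or 9 (0.119), with equal totals (0.0798) and in the fit to only the groups compared (0.0993), and its adjusted p ranged from 0.00372 to 0.126 over the 25 alternatives. ILV1 and CHA1 encode related dehydratases and share 69.9% of 1055 aligned coding bases, with no stretch of 50 bases in common.

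CHA4, the activator gene on chromosome XII at 337527-339473, had 181 to 202 normalized counts in control. The libraries of La EC10 spanned 196 to 239, those of La EC50 182 to 239.8, those of Yb EC10 180.2 to 197 and those of Yb EC50 207 to 273. The Yb EC50 libraries lay above the control libraries, and the other groups overlapped control. The log2 differences were 0.12, 0.14, -0.06 and 0.27, each with an SE of 0.12, and none passed the test (limma adjusted p = 0.518, 0.409, 0.747 and 0.0763). The Yb EC50 difference passed without Yb EC50 library 5 (0.0385), with equal totals, where it was 0.41 (0.0128), and in limma on 13 libraries (0.0445), over a range of 0.0128 to 0.321. Its 95% interval was 0.02 to 0.52, and those of the La differences reached from -0.13 to 0.37 at EC10 and from -0.11 to 0.39 at EC50.

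Among the 7 genes other than CHA1, 4 were called at La EC10 (1 higher, 3 lower), where 20.3% of all genes tested were called. At La EC50 5 were called (1 higher, 4 lower), beside 25.6% of all genes. At Yb EC10 5 were called (1 higher, 4 lower), beside 29.3%, and at Yb EC50 3 (1 higher, 2 lower), beside 40.8%. The median log2 change of the 7 genes was -0.21, -0.29, -0.24 and -0.19 in that order, and that of all genes 0.01, 0.01, 0.00 and -0.02. In each of these comparisons SER3 was the called gene that was higher. With equal totals 1 was higher and 2 lower at La EC10, 1 and 3 at La EC50, 1 and 1 at Yb EC10, and 2 and 1 at Yb EC50, where CHA4 joined SER3. That scaling moved the median log2 change of all genes to 0.08, 0.11, 0.07 and 0.11 in that order. Its counts are therefore not to be read against the shares above. The Yb EC10 count was 2 without control library 2 or Yb EC10 library 9 and 3 without control library 3 or Yb EC10 library 7, and the Yb EC50 count was 5 without control library 1.

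**Figure D3:**
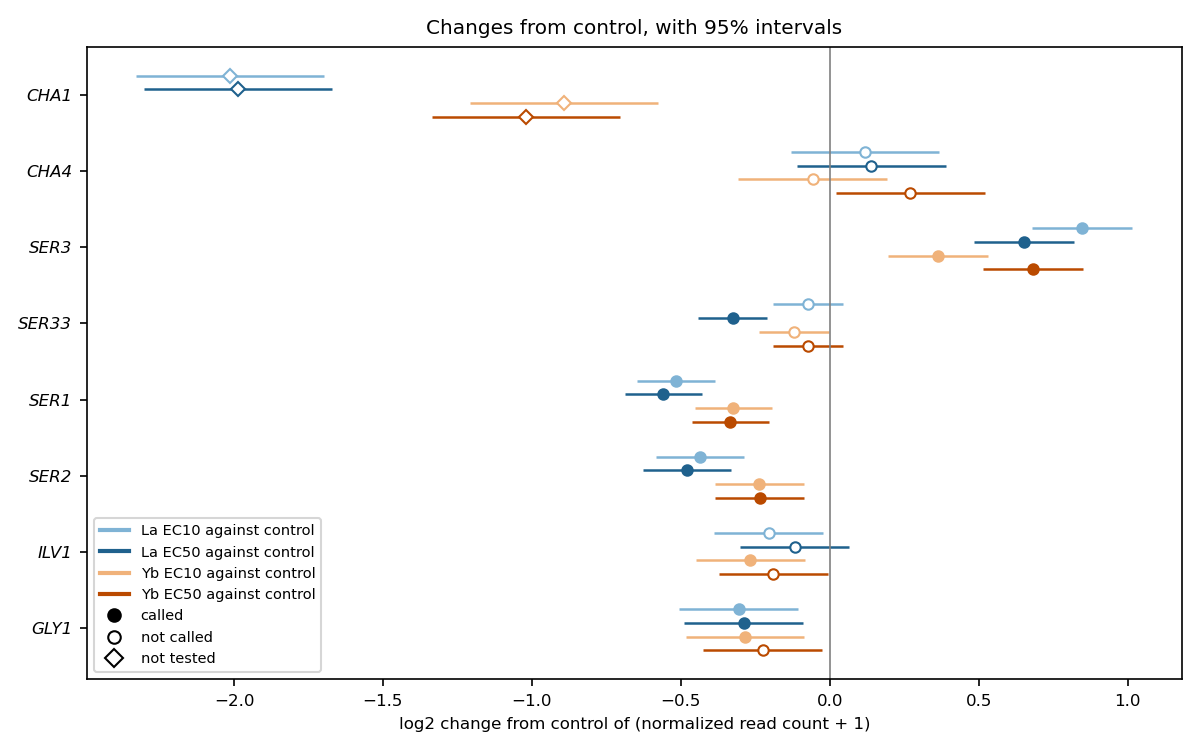
Log2 change from control of the 8 genes in the 4 exposed groups (horizontal axis, log2 of normalized read count + 1), with 95% intervals. Filled circles were called, open circles were not, and diamonds mark CHA1, which was not tested. The intervals of CHA1 rest on values that chose it and do not serve as a test. SER3 lies between 0.36 and 0.85 and SER1 between -0.56 and -0.32.

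From La EC10 to La EC50, 1 of the 7 genes was called, beside 1.78% of all genes: SER33, which fell by 0.25 on the log2 scale (SE 0.06, limma adjusted p = 0.0289). That call was lost without La EC10 library 13 (0.127) or 15 (0.0698), without La EC50 library 10 (0.0653), 11 (0.114) or 12 (0.0981), and in 5 further alternatives, over a range of 0.0195 to 0.236. From Yb EC10 to Yb EC50, 0 of the 7 were called by limma, beside 1.10% of all genes, while 2 had an unadjusted p under 0.05, edgeR called 0 and DESeq2 called 1. The difference nearest the threshold was that of SER3, 0.32 ± 0.08 (adjusted p = 0.0525), which passed without La EC10 library 14 (0.028) or Yb EC10 library 7 (0.0145). CHA4 differed by 0.33 ± 0.12 (adjusted p = 0.134) in that step.

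A test of whether the dose step differed between the metals gave a call for 2 of the 7 genes, beside 3.25% of all genes. For SER3 the La step minus the Yb step was -0.51 ± 0.11 (limma adjusted p = 0.0348), and the La step itself was -0.20 ± 0.08 (0.254). For SER33 it was -0.30 ± 0.08 (0.0487). The SER3 call was lost without La EC50 library 11 (0.0562) or 12 (0.0924), Yb EC10 library 8 (0.0844) or 9 (0.0686) or Yb EC50 library 5 (0.0522) or 6 (0.0859), and its adjusted p ranged from 0.00668 to 0.0924. The SER33 call was lost in 20 of the 25 alternatives, among them the removal of any control library (0.0555 to 0.0621), of any La library (0.0581 to 0.128), of Yb EC10 library 8 (0.116) or 9 (0.114) and of Yb EC50 library 4 (0.116) or 6 (0.112).

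Between the metals, 1 of the 7 genes was called at EC10, SER3, beside 5.89% of all genes, and 3 were called at EC50, beside 22.0%. Without La EC10 library 14 the EC10 count was 3, and without Yb EC50 library 6 the EC50 count was 1. At EC50 SER33 was lower with La than with Yb by a log2 difference of -0.25 ± 0.06 (limma adjusted p = 0.00403), SER2 by -0.24 ± 0.07 (0.0212) and SER1 by -0.22 ± 0.06 (0.0153). The SER33 call held under each of the 25 alternatives. The SER1 call was lost without La EC50 library 10 (0.0664) or Yb EC50 library 5 (0.064) or 6 (0.0507) and by edgeR (0.131) and DESeq2 (0.0938), over a range of 0.00296 to 0.131. Limma on the same 13 libraries as edgeR and DESeq2 lost it too (0.0833). The SER2 call was lost without La EC50 library 11 (0.0836) or Yb EC50 library 6 (0.1), over a range of 0.0112 to 0.1. At EC10 the La and Yb differences of SER1, -0.19 (0.0804), and SER2, -0.20 (0.118), did not pass, and both passed without La EC10 library 14 (0.0458 and 0.045). CHA1 differed by -1.12 at EC10 and -0.97 at EC50.

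Levels of the 8 genes were compared per kilobase of coding length. In control the order from the highest was GLY1 at 2686 normalized counts per kb, SER1 at 1693, ILV1 at 1390, SER33 at 1078, SER2 at 864, SER3 at 550, CHA1 at 392 and CHA4 at 99.4, and the ranges of neighbours in that order did not overlap. At La EC50 SER3, with 864 ± 1.43 per kb (SD, n = 3), stood beside SER33, with 860 ± 29.5, and their ranges overlapped. The ranges of that pair also overlapped at La EC10, with means of 994 and 1024 per kb. At La EC50 SER3 was above SER2, at 619 ± 27 per kb, the reverse of their order in control. The order was also reversed at La EC10, with 994 against 640 per kb, and at Yb EC50, with 883 against 735. At Yb EC10 the ranges of SER3 and SER2 overlapped. At La EC50 CHA1, with 98.6 ± 8.29 per kb, overlapped its activator gene CHA4, with 110 ± 15. At La EC10 the range of CHA1, 93.1 to 98.2 per kb, lay below that of CHA4, 101 to 123. At Yb EC50 CHA1, with 199 ± 58.5 per kb, remained above CHA4, with 121 ± 17.5, and their ranges nearly met, at 142 and 140 per kb.

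The ratio of CHA1 to SER3, the breakdown gene over a gene of the opening synthetic step, was 0.548 ± 0.00861 in control (SD, n = 3). It was 0.0751 ± 0.00713 at La EC10, 0.0876 ± 0.00738 at La EC50, 0.229 ± 0.0196 at Yb EC10 and 0.172 ± 0.0432 at Yb EC50. The highest La library was at 0.0922, the lowest Yb library at 0.131, the highest Yb library at 0.251 and the lowest control library at 0.543. The ratio includes the La and control values by which CHA1 was chosen, so this separation is a description only.

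The genes with the pattern most like that of CHA1 were sought over the 4 log2 changes from control, among the 5216 genes averaging 50 or more normalized counts, by the root mean square difference. They were MFA1 (0.40), which encodes a precursor of the mating pheromone a-factor, PHM6 (0.50), SHM2 (0.53), the cytosolic serine hydroxymethyltransferase, ADE17 (0.54) of purine synthesis, and AGA1 (0.55), a subunit of the mating agglutinin. MFA1, the nearest, changed by -1.46, -1.43, -0.72 and -0.99 on the log2 scale at La EC10, La EC50, Yb EC10 and Yb EC50. For SER3 they were ADD37 (0.11), EEB1 (0.13), an ethyl ester synthase of fatty acids, and CHS6 (0.13), a factor for export of a chitin synthase.

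CHA1 is the gene next to the silent mating type locus HML, and 12 annotated genes lie within 10 kb of it. On the side of the telomere, VBA3, YCL068C, HMLALPHA2 and HMLALPHA1 had 0 reads in all libraries and GEX1 at most 1.06 normalized counts. Whether sequence shared with other genes kept reads from being counted there was not examined, so these values do not show absence of transcript. On the other side, VAC17, which begins at 17290 on the opposite strand of chromosome III, had 346 normalized counts in control and 302 to 310 in the exposed groups, and none of its differences passed the test (limma adjusted p = 0.122 to 0.263). MRC1, a replication checkpoint gene, was lower at La EC50 by -0.25 (adjusted p = 0.0473), and KRR1, a ribosome assembly gene, at Yb EC10 by -0.41 and at Yb EC50 by -0.39 (0.00944 and 0.00955). PRD1, a peptidase gene, was higher at La EC10, La EC50 and Yb EC50 by 0.18, 0.16 and 0.23 (0.0356, 0.0488 and 0.00389). ADF1 and MIC10 had no call, and FYV5, which overlaps ADF1 on the other strand, was below the level tested. The lowest log2 difference from control among the tested neighbours on that side was the -0.41 of KRR1.

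Genes around the 8 were followed in lists fixed with earlier results of these data known, and called members are counted beside 10.2% higher and 10.1% lower of all genes at La EC10, 12.6% and 13% at La EC50, 15.2% and 14% at Yb EC10 and 20.6% and 20.2% at Yb EC50. These shares are those of the main fit. With equal totals the median log2 change of all genes was 0.08, 0.11, 0.07 and 0.11 in that order. Counts under other scalings therefore show only how far the main counts hold and are no separate result about a list. Of 7 genes that make glycine from serine or other sources and break it down, 4 fell at each La dose and none rose. With Yb 3 fell and 1 rose at EC10, and 4 fell and 2 rose at EC50. SHM2, which moves a carbon from serine to folate, had 4811 ± 276 normalized counts in control (SD, n = 3), 1523 ± 61.3 at La EC50 and 3380 ± 231 at Yb EC50, log2 changes of -1.66 and -0.51 (limma adjusted p = 4.91e-11 and 1.65e-05). GCV2 and GCV1, subunits of the glycine cleavage complex, changed by -1.43 and -1.17 at La EC50 and by -0.58 and -0.32 at Yb EC50. AGX1, which makes glycine from glyoxylate, rose from 48.4 to 94.0 normalized counts at Yb EC50 (0.95, adjusted p = 0.00148) and was at 55.7 at La EC50 (0.21, 0.45). With equal totals 2 fell and 2 rose at each Yb dose, and with equal totals or quantile normalization 4 fell and 1 rose at La EC10. With quantile normalization 3 fell and none rose at Yb EC10.

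Of 5 genes of threonine synthesis, 4 fell at La EC10, 2 at La EC50, 4 at Yb EC10 and 3 at Yb EC50, and none rose. HOM3, the aspartate kinase of the opening step, had 1930 normalized counts in control, 1479 at La EC50 and 1560 at Yb EC50, log2 changes of -0.38 and -0.31 (limma adjusted p = 0.00391 and 0.00951). HOM2, the next enzyme, changed by -0.31 and -0.22 (0.0019 and 0.0118), and THR4, the threonine synthase, by -0.32 at Yb EC50 (0.00465) with -0.20 at La EC50 (0.0727). With equal totals 2 fell and none rose at La EC10, La EC50 and Yb EC10, and 1 fell and 1 rose at Yb EC50, where quantile normalization gave 2 and 1. With quantile normalization 3 fell at La EC10 and 3 at Yb EC10.

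Of 9 genes of branched-chain amino acid synthesis, which take part in making isoleucine, valine or leucine, 7 fell at each La dose and 4 at each Yb dose, with 1 that rose at each EC50. LEU1, the isomerase of leucine synthesis, had 2488 normalized counts in control, 1448 at La EC50 and 2237 at Yb EC50, log2 changes of -0.78 and -0.16 (limma adjusted p = 0.000113 and 0.282). ILV5, the reductoisomerase, changed by -0.62 and -0.36 (0.000235 and 0.00768), ILV3, the dihydroxyacid dehydratase, by -0.54 and -0.38 (0.00544 and 0.025), and ILV2, a subunit of acetolactate synthase, by -0.45 and -0.27 (0.00292 and 0.0304). ILV1 itself differed by -0.12 and -0.19, with no call at either dose. With equal totals 6 fell at La EC50, 3 at Yb EC10 and 2 at Yb EC50. With quantile normalization 2 fell at each Yb dose, and none rose at La EC50.

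Of 9 genes that use serine or threonine, 2 rose at each La dose, with 1 that fell at La EC50. With Yb 1 rose and 2 fell at EC10, and 3 rose and 2 fell at EC50. CHO1, which joins serine to a lipid to make phosphatidylserine, rose from 2621 normalized counts in control to 4222 at La EC50 and 3632 at Yb EC50, log2 changes of 0.69 and 0.47 (limma adjusted p = 2.86e-05 and 0.000592). MST1, the mitochondrial threonyl-tRNA synthetase, rose by 0.24 and 0.39 (0.0472 and 0.00229). The cytosolic synthetase genes SES1, for serine, and THS1, for threonine, changed by -0.28 and -0.27 at Yb EC50 (0.0206 and 0.0304). With equal totals 3 of the 9 rose and none fell at La EC50, 3 rose and 1 fell at Yb EC10, and 4 rose and none fell at Yb EC50. With quantile normalization none fell in any of these groups, and 1 rose at each La dose.

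Of 12 genes of amino acid uptake and sensing, 2 rose and 1 fell at La EC10, 5 rose and 1 fell at La EC50, and 2 rose and 2 fell at each Yb dose. AGP1, a permease of broad range that takes up serine and threonine, rose from 289 normalized counts in control to 425 at La EC50 and 662 at Yb EC50, log2 changes of 0.55 and 1.19 (limma adjusted p = 0.00118 and 3.56e-07). DIP5, a permease of glutamate and aspartate that also carries serine, fell by 0.69 and 0.55 (2.12e-06 and 1.36e-05). STP2, an activator released by the amino acid sensor of the cell surface, rose by 0.64 and 0.45 (7.33e-06 and 0.00016), and TAT1, a tyrosine and threonine permease, fell by 0.30 at Yb EC50 (0.00135) with -0.08 at La EC50 (0.325). With equal totals 5 rose and 1 fell at Yb EC50.

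Of 10 genes of the breakdown of other amino acids, 2 rose and 1 fell at La EC10, 2 and 2 at La EC50, 4 and 2 at Yb EC10 and 6 and 3 at Yb EC50. ARO10, a decarboxylase of aromatic amino acid breakdown, was at 5.40 normalized counts in control, 4.65 at La EC10, 3.74 at La EC50, 11.9 at Yb EC10 and 27 at Yb EC50. It reached the mean needed for testing through its Yb EC50 libraries, so its inclusion among the genes counted as risen at both Yb doses supports nothing. UGA2 and UGA1, for the use of 4-aminobutyrate, rose by 0.94 and 0.55 at Yb EC50 (limma adjusted p = 1.09e-06 and 2.85e-05). UGA2 also rose with La, by 0.52 at EC10 and 0.33 at EC50 (0.00094 and 0.014). UGA1 rose by 0.23 at La EC10 (0.0387), and its 0.16 at La EC50 did not pass (0.116). SRY1, a dehydratase of 3-hydroxyaspartate, rose by 0.65 at Yb EC50 (0.00207) and was at 0.10 at La EC50 (0.648). With equal totals 4 rose and 2 fell at La EC50, 5 and 2 at Yb EC10 and 6 and 1 at Yb EC50. With quantile normalization 2 rose and 2 fell at La EC10 and at Yb EC10, and 2 rose and 3 fell at La EC50.

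Of 9 regulator genes, 2 fell at La EC10, La EC50 and Yb EC10 and 1 at Yb EC50, and none rose. With equal totals none fell at La EC10, 1 fell at La EC50 and Yb EC10, and 1 fell and 1 rose at Yb EC50. Quantile normalization gave 1 that fell at La EC10 and 1 that rose at each EC50. BAS1, an activator of purine and histidine genes that also acts on SHM2 and the glycine cleavage genes, had a log2 change of -0.50 at La EC50 (limma adjusted p = 0.00816) and -0.24 at Yb EC50 (0.138). CBF1, a factor of sulfur amino acid genes, fell by 0.28 and 0.43 (0.018 and 0.000631). Of 4 genes of lower glycolysis around 3-phosphoglycerate, 1 rose at La EC10, 1 fell at La EC50 and 1 at Yb EC10. With equal totals or quantile normalization none fell at Yb EC10 and 1 rose at Yb EC50. PGK1, which makes 3-phosphoglycerate, fell by 0.41 at La EC50 (0.00474) and was at -0.19 at Yb EC50 (0.123).

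**Figure D4:**
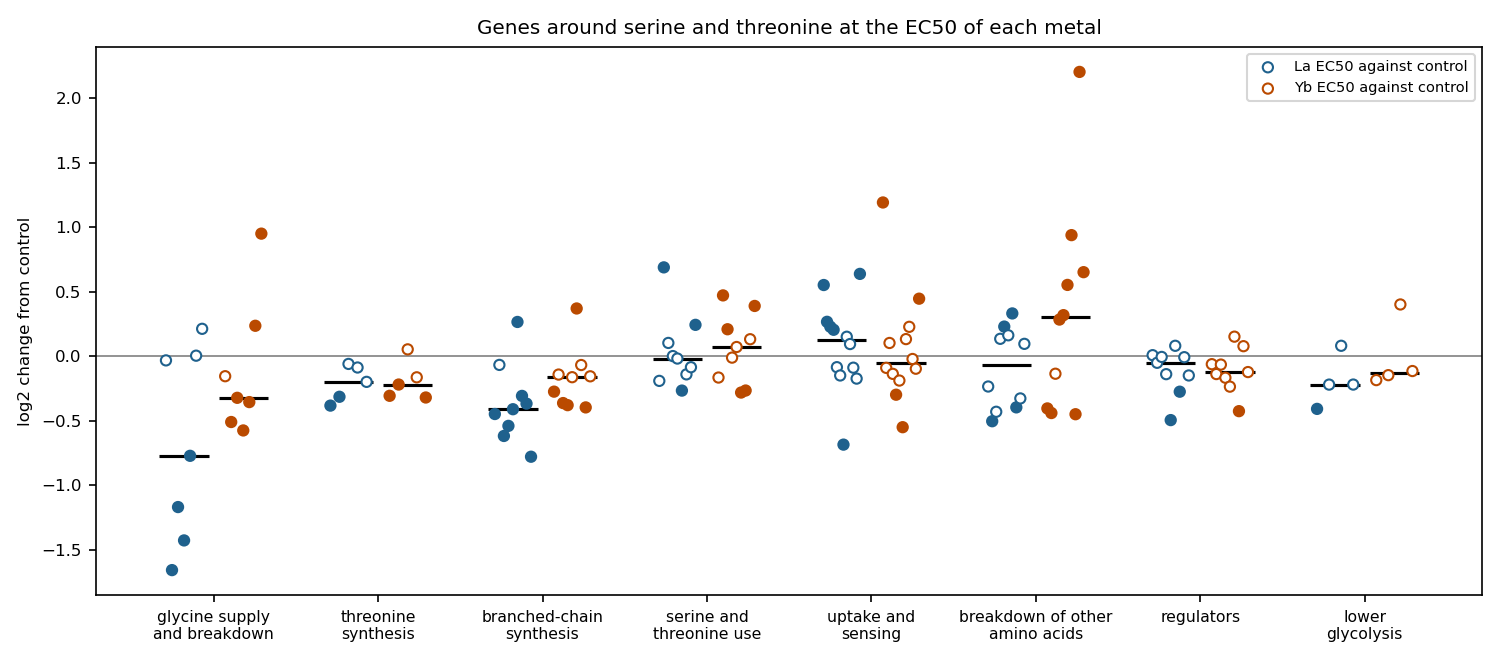
Log2 change from control at La EC50 and Yb EC50 (vertical axis, log2 of normalized read count + 1) of each gene in 8 lists around serine and threonine metabolism (horizontal axis). Filled points were called and lines are list medians; in the glycine list SHM2 is lowest, at -1.66 with La, and in the uptake list AGP1 is highest, at 1.19 with Yb. The point at the top is ARO10, which was tested only because its Yb EC50 libraries raised its mean.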

How the data were processed

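RNA was measured in 15 libraries of yeast. Per the labels, the libraries were strand-specific and TruSeq-made. The deposited signal is the authors' gene count divided by a size factor per library. The submitters' processing notes list build R64 and the tools DESeq2 1.14.1, HTSeq 0.6.1p1, TopHat2 2.1.1 and FastQC 0.67. What each did, and whether counting used strand, is not given in the sources used here, so FYV5 and ADF1, which overlap, are uncertain. Each deposited value was a whole number of reads (100% within a tolerance of 0.01), a read being worth 0.901 to 1.22 normalized counts. In 2 libraries, La EC50 library 10 and La EC10 library 13, this worth lay within 0.5% of 1, and they were left out of count tests. Depth was 5629666 to 7183175 reads per library. Floors of 3 reads cover counting error only. Replicate pairs differed by more than sampling noise (chi-square per degree of freedom 4.76 to 27.1; Pearson's r across genes 0.987 to 0.995).

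Of 6600 identifiers 5917 matched RefSeq's R64 annotation, which also gave coordinates, coding lengths and sequences, 1-based. The 5567 genes averaging 10 or more normalized counts were transformed to log2(value + 1) and tested in limma 3.58.1 (R 4.3.3), all 15 libraries being fitted together, with 2-sided contrasts and Benjamini-Hochberg adjustment. The script was tested on simulated data. An exact permutation test of 3 against 3 libraries cannot go below 0.10 and was not used. Alternatives were pseudocounts, filters, scalings, a fit to only the groups compared, edgeR 4.0.16, DESeq2 1.42.0 and leaving out each library.

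The 8 genes and the lists were chosen with earlier results of these data known. All 8 genes were named. Of each list the rule took up to 4 members called at an EC50 with the largest change, and of the genes most alike the 5 nearest CHA1 and the 3 nearest SER3. Genes within 10 kb of CHA1 were named as neighbours. 5 columns of group means were not used.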

Additional observations from a re-analysis of the deposited data

Results flagged for a closer look

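The change from EC10 to EC50 differed between the metals for 2 genes by the test of the difference itself, limma's interaction contrast adjusted over all genes. For SER3 the La step minus the Yb step was -0.51 on the log2 scale (adjusted p = 0.0348): the mean went from 1401 to 1219 normalized counts with La and from 999 to 1245 with Yb. For SER33 it was -0.30 (adjusted p = 0.0487): the mean went from 1444 to 1212 with La and from 1399 to 1445 with Yb. The SER3 call was lost in 8 of 25 alternative settings and the SER33 call in 20 of 25.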

How the results depend on the processing

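Of 1800 values of single genes under alternatives, 1675 kept their call or, where there was none, moved by less than an SE, 81 lost a call, 15 gained a call, 29 without a call moved by more than an SE and 0 of those called reversed. No paired analysis was possible because the columns carry a running number and not the replicate number of the labels. edgeR and DESeq2 were run on the 13 libraries whose reads were recovered, and limma on the same 13 was added after seeing the data. The number of the 7 genes called was 3 to 5 at La EC10 and 4 to 5 at La EC50 over all alternatives. At Yb EC10 it was 5, with 2 under equal totals and 2 to 5 with a library left out. At Yb EC50 it was 3, with 2 to 5 when a library was left out. For the La dose step it was 1, with 0 under equal totals, in the fit to only the groups compared, by edgeR, by DESeq2 and by limma on 13 libraries, and 0 to 1 with a library left out. For the Yb dose step it was 0, with 1 under equal totals, quantile normalization and DESeq2, and 0 to 1 with a library left out. Between the metals, leaving out a library gave 1 to 3 at EC10 and at EC50. For the difference of the dose steps it was 2, with 1 under no filter, a mean of at least 50, equal totals, edgeR and DESeq2, 0 in the fit to only the groups compared and by limma on 13 libraries, and 0 to 2 with a library left out. The cause was not tested.

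Equal totals moved the median log2 change of all genes from 0.01 to 0.11 at La EC50 and from -0.02 to 0.11 at Yb EC50, so changes are best read against it. The share of all calls that were higher went from 50.3% to 71.2% at La EC10, from 49.3% to 74.2% at La EC50, from 52.0% to 70.1% at Yb EC10, from 50.5% to 78.8% at Yb EC50 and from 55.6% to 70.4% for the La dose step. Over all alternatives 518 to 1511 genes were called at La EC10, against 1131, 910 to 1611 at La EC50, against 1425, 989 to 1818 at Yb EC10, against 1629, and 1515 to 2393 at Yb EC50, against 2274. The dose steps had 16 to 128 with La, against 99, 0 to 536 with Yb, against 61, and 16 to 481 for their difference, against 181. The metals differed in 142 to 359 genes at EC10, against 328, and 789 to 1380 at EC50, against 1224. With 3 libraries a group, the changes of GLY1 and ILV1 had adjusted p-values on both sides of the threshold, depending on the library left out.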
